A study of Salmo salar with 16 samples.

Results

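Spleens of Atlantic salmon fed soybean meal with autolysed yeast (ACJ) were compared with spleens of salmon fed a fishmeal control diet (FM). The 4 ACJ and 4 FM fish were taken by the diet named in their sample labels, out of 16 fish in the series. ACJ contained 40% soybean meal together with 5% of the yeast Cyberlindnera jadinii that had been autolysed, that is, left to break down through its own enzymes. FM was the diet based on fishmeal. Of the other 8 fish, 4 ate ICJ, which had the same soybean meal and the same share of yeast, inactivated by heat, and 4 ate SBM, which had the soybean meal and no yeast. All fish had a mean starting weight of 5.71 g, lived in 100 L tanks of recirculated fresh water at 15 °C under 24 h of light, and were fed for 37 days. Besides soybean meal and yeast, the recipes of ACJ and FM differed in the amounts of fishmeal, wheat gluten, potato starch, cellulose, phosphate and added lysine and methionine, and these parts of the diet cannot be told apart in this comparison. ACJ and SBM also differed in the amounts of wheat gluten and potato starch and slightly in fishmeal. Fish are numbered by their sample titles; the library names inside the count tables give the same diet for all 16 fish but another number for 13 of them. Diets were given by tank, and the study states that the fish of each diet came from duplicated tanks. The labels do not name the tank of a fish, so tank and diet cannot be told apart either. Fish that shared a tank entered the tests as separate replicates.

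The spleen of a fish filters blood and is also an organ of immune defence. It holds red cells and their precursors, B and T cells, and macrophages that sit along the vessels, take up particles and old red cells and break them down in lysosomes. Soybean meal is a plant protein known for causing inflammation of the distal gut of salmon, and the cell wall of yeast carries glucans and mannans that cells of the immune system recognise through receptors. Salmonids carry many genes as pairs of copies that remain from an ancient doubling of the genome, so that a gene and a "-like" copy on another chromosome often appear side by side.

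Counts per fish on named genes were between 5013312 and 7388214 in ACJ (median 6774956) and between 5730980 and 6797937 in FM (median 6164268), and between 6123741 and 9075622 in the other 2 diets. A count of 3 corresponded to between 0.406 and 0.598 counts per 1000000 (CPM) in ACJ and between 0.441 and 0.523 CPM in FM, a floor that covers counting error only. Markers of B cells, T cells and macrophages were present in each of the 16 libraries, with summed levels of at least 724, 335.5 and 6240 CPM. Genes of the exocrine and endocrine pancreas, an organ that lies against the spleen in salmon, were present too. The summed level of 7 of them was 12600, 7842, 849 and 13290 CPM in ACJ fish 1 to 4, against 13820, 1842, 3150 and 6862 CPM in FM fish 1 to 4. The first principal component, with 39.5% of the variance of the 2000 most variable genes, separated libraries along this signal and not by diet. The summed level of 14 red cell genes was 4622, 4863, 4692 and 5008 CPM in ACJ fish, against 5584, 5051, 9866 and 9802 CPM in FM fish. The groups were apart in this sum only by a narrow margin, 5008 CPM in ACJ fish 4 against 5051 CPM in FM fish 2. FM fish 3 and 4 were well above the other 6. With the red cell genes found by name in the study's own gene lists added, 49 in all, the sums were between 39440 and 44120 CPM in ACJ and between 40020 and 80700 CPM in FM, and FM fish 1 lay inside the ACJ range. Fewer cells of a type and less RNA per cell cannot be told apart in such whole-tissue counts.

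**Figure D1:**
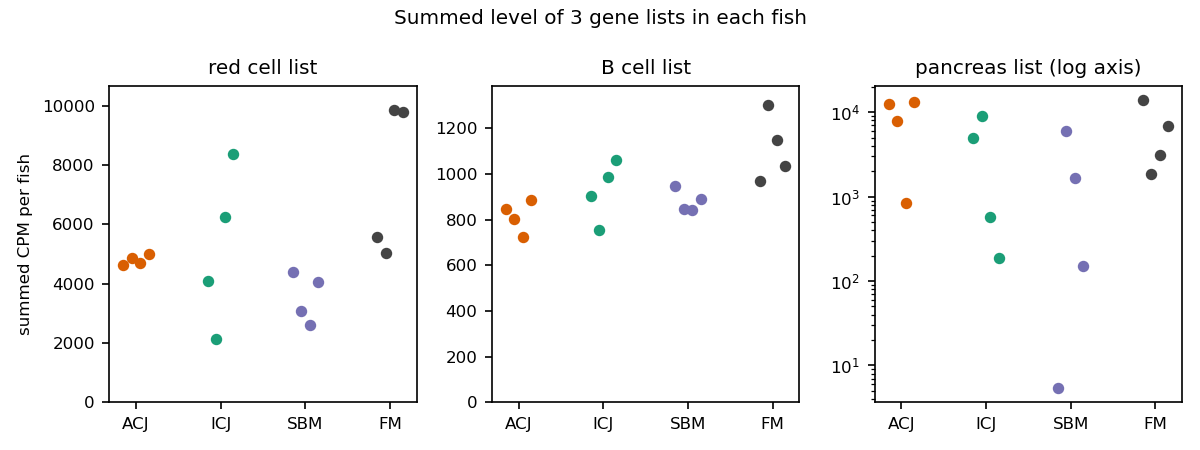
Summed level in CPM of 14 red cell, 12 B cell and 7 pancreas genes (3 panels; the pancreas panel has a log axis), with 1 point per fish and the diets ACJ, ICJ, SBM and FM from left to right. Red cell sums lay between 4622 and 5008 CPM in ACJ and between 5051 and 9866 CPM in FM, B cell sums between 724 and 887 CPM in ACJ and between 970 and 1303 CPM in FM, and pancreas sums overlapped between the diets.

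Of 28929 genes tested, 68 (0.235%) differed between ACJ and FM in edgeR's quasi-likelihood test at a Benjamini-Hochberg adjusted p below 0.05, and such genes are referred to as called. Of these, 41 (0.142%) were higher and 27 (0.0933%) were lower in ACJ. The genes called higher included 2 creatine kinases, 2 copies of the sterol regulator insig1, a chemokine, receptors of immune and vessel cells and lysosomal proteases, and those called lower included an immunoglobulin light chain, fcho2 and an FCHSD2-like gene, a calcium pump and several genes with no known product. Changes were moderate. The median log2 fold change was 0.54 (range 0.26 to 1.47) among the higher and -0.62 (range -1.36 to -0.38) among the lower genes, against -0.003 over all tested genes, and 7 of the 68 changed by 2-fold or more. In 67 of the 68 genes, all but the MKL/myocardin-like LOC106601093, the 4 ACJ and the 4 FM fish did not overlap, as was true of 2041 (7.06%) of all tested genes. Lack of overlap was also a condition for naming the genes with the largest changes, so for them it is no further support. At an unadjusted p below 0.05 there were 4307 genes (14.9%), 2167 higher and 2140 lower in ACJ. A positive log2 fold change was found in 14296 of the 28929 genes. The counts given for gene lists are to be read beside these values, and those by other tools beside the totals of these tools. DESeq2 called 460 genes in all (235 higher and 225 lower in ACJ), and edgeR's likelihood ratio test called 190. Genes found by name in the study's own gene lists, drawn from these same fish, are not in the counts by symbol. The lists and their members by symbol were also chosen with earlier results of these data known. Their counts are therefore a description and no independent support.

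The number of calls depended on single fish. It was 2 without ACJ fish 1, 2 without ACJ fish 2, 4 without ACJ fish 3, 215 without ACJ fish 4, 550 without FM fish 1, 3 without FM fish 2, 6 without FM fish 3 and 22 without FM fish 4. Only kcrt and the gamma-glutamyltransferase 5-like gene were called in all 8 of these fits, while 49 of the 68 were called in 2 or fewer. Of genes described below, insig1 was called in 1 of these fits. The insig1-like copy, the CCL25-like gene, mrc1, adgrl4, the clathrin heavy chain 1-like gene and the FCHSD2-like gene were each called in 2. With the level of red cell RNA added as a covariate, an alternative chosen after seeing the data, 3 genes stayed called: kcrt, the gamma-glutamyltransferase 5-like gene and the anoctamin-1-like gene. The covariate was the summed level of 14 red cell genes, which was itself apart between ACJ (4622 to 5008 CPM) and FM (5051 to 9866 CPM). Calls lost with it therefore cannot tell red cell RNA and diet apart. The part of red cell RNA in the single results was not tested further.

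**Figure D2:**
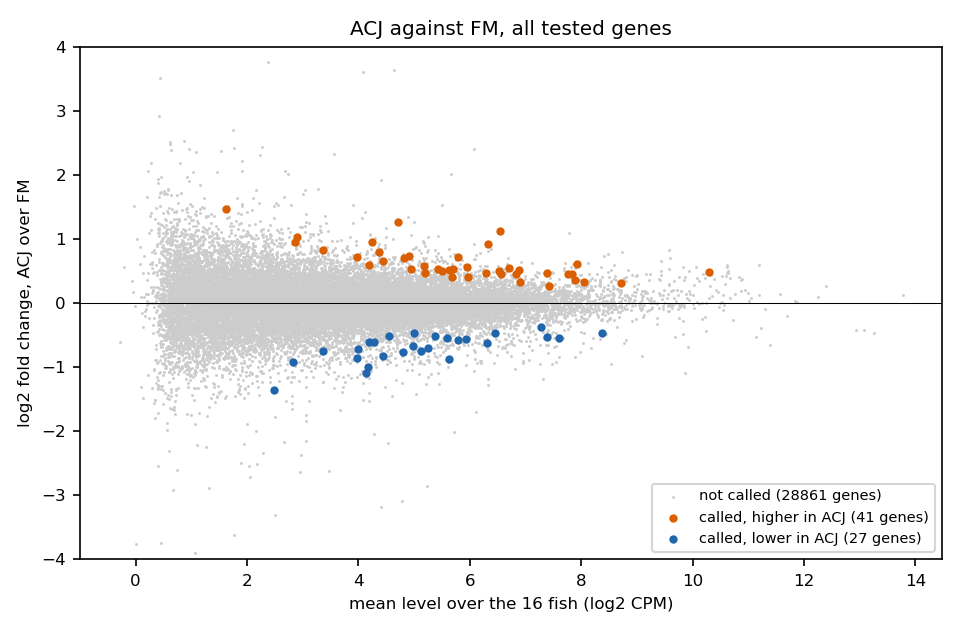
Log2 fold change of ACJ over FM (y axis) against the mean level over the 16 fish in log2 CPM (x axis) for the tested genes, with the 41 genes called higher and the 27 called lower in ACJ in colour; 3 genes beyond 4 on the y axis are not drawn. Called genes lie at the edges of the cloud at middle and high levels, with log2 fold changes between -1.36 and 1.47.

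A gene of energy supply gave the smallest adjusted p of the comparison. Creatine kinases move phosphate between ATP and creatine and so buffer the cell's energy. The gene kcrt, creatine kinase, testis isozyme (chromosome 9, 26169091 to 26173503 of the ICSASG_v2 genome), had 128, 119, 132 and 98.6 CPM in ACJ fish, against 66.6, 51.9, 43.5 and 57.2 CPM in FM fish. Its lowest ACJ fish lay far above its highest FM fish (log2 fold change 1.13, standard error (SE) 0.13, adjusted p = 0.00167). Its adjusted p was at most 0.0239 in the fits that left out 1 ACJ or FM fish. A second creatine kinase, the B-type-like LOC106607642 (chromosome 6, 49002435 to 49013297), had 29.5, 27.2, 18.6 and 17.9 CPM in ACJ, against 11.1, 13.9, 12.5 and 10.8 CPM in FM. The groups did not overlap, with ACJ fish 1 and 2 clearly above ACJ fish 3 and 4 (log2 fold change 0.95, SE 0.17, adjusted p = 0.0336). The glycolytic enzyme aldolase A, aldoa (chromosome 3, 51093248 to 51105749), was also called, at 264 ± 18.5 CPM in ACJ and 206 ± 14.1 CPM in FM (SD, n = 4 fish each; log2 fold change 0.36, SE 0.07, adjusted p = 0.0355). Its copy LOC106583908 had 226 ± 5.93 CPM in ACJ and 187 ± 13.5 CPM in FM with no call (log2 fold change 0.27, SE 0.07, adjusted p = 0.0844), as did gapdhs (LOC106577739), a glyceraldehyde-3-phosphate dehydrogenase, at 276 ± 10.5 and 230 ± 12.2 CPM (log2 fold change 0.26, SE 0.07, adjusted p = 0.0904). Of the 19 tested genes of glycolysis and creatine phosphate matched by symbol, 2 were called higher and 0 lower, 17 had a positive log2 fold change, and the median was 0.21.

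The other gene called with each fish left out was LOC106568231, gamma-glutamyltransferase 5-like (chromosome 13, 86308155 to 86317493). Enzymes of this family sit on the cell surface and cleave glutathione and its conjugates, and the human member GGT5 converts the inflammatory lipid leukotriene C4. Its level was 103, 85.5, 96.8 and 99.0 CPM in ACJ fish, against 40.7, 50.0, 55.6 and 56.7 CPM in FM fish. There was a wide gap between the groups (log2 fold change 0.92, SE 0.12, adjusted p = 0.00486, and at most 0.0357 with a fish left out). The gene of leukotriene C4 synthase, ltc4s, which makes that lipid, had 37.5, 48.7, 39.8 and 39.2 CPM in ACJ, against 35.0, 26.2, 26.6 and 27.5 CPM in FM, again without overlap but with no call (log2 fold change 0.52, SE 0.12, adjusted p = 0.0657). Another member of the transferase family, LOC106579933, named gamma-glutamyltranspeptidase 1-like, stood on the opposite side, with 28.1, 22.99, 24.5 and 22.99 CPM in ACJ and 33.2, 52.2, 50.9 and 54.7 CPM in FM (log2 fold change -0.95, SE 0.20, adjusted p = 0.0586, not called).

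Among the genes of amino acid transport and metabolism matched by symbol, 0 of 36 were called by the quasi-likelihood test, against 5 lower in ACJ with DESeq2 and 3 lower with edgeR's likelihood ratio test. At an unadjusted p below 0.05 there were 4 higher and 12 lower. The mitochondrial serine hydroxymethyltransferase shmt2, which splits serine into glycine and a one-carbon unit, came closest to the threshold in this list. It had 63.1, 53.9, 59.8 and 77.3 CPM in ACJ, against 89.4, 77.0, 109 and 96.0 CPM in FM (log2 fold change -0.55, SE 0.12, adjusted p = 0.0586). ACJ fish 4 lay just inside the FM range.

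Both copies of insig1 were called higher, but insig1 kept its call in 1 and LOC106578605 in 2 of the 8 fits that left out a fish. Insig proteins hold the sterol sensor SCAP in the endoplasmic reticulum and thereby restrain the making of cholesterol, and in mammals INSIG1 is itself a target of the sterol-regulated factor SREBP. The gene insig1 (chromosome 29, 10080661 to 10092312) had 23.03, 27.5, 20.97 and 32.6 CPM in ACJ, against 17.9, 14.3, 13.2 and 14.5 CPM in FM (log2 fold change 0.79, SE 0.16, adjusted p = 0.0415). LOC106578605, insulin-induced gene 1 protein-like (chromosome 19, 26786767 to 26790738), had 7.94, 11.9, 7.73 and 7.67 CPM in ACJ, against 5.71, 4.01, 4.05 and 3.501 CPM in FM (log2 fold change 1.03, SE 0.21, adjusted p = 0.0428). In both copies each ACJ fish exceeded each FM fish, and in the second copy ACJ fish 2 stood apart from the other ACJ fish. Of 15 sterol genes matched by symbol, insig1 was the 1 called, 5 had an unadjusted p below 0.05, all higher in ACJ, and 12 had a positive log2 fold change (median 0.25). The receptor of very low-density lipoprotein, vldlr (LOC100136429), had 15.4 ± 2.40 CPM in ACJ and 9.12 ± 2.26 CPM in FM (SD, n = 4; log2 fold change 0.75, SE 0.22, adjusted p = 0.133). An apolipoprotein Eb-like gene, LOC106605689, whose protein carries lipids in blood, had the opposite sign, with 87.5 ± 20.1 CPM in ACJ and 156 ± 54.1 CPM in FM, but its groups overlapped (log2 fold change -0.83, SE 0.27, adjusted p = 0.189).

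Among signals of the immune system, a chemokine and a cytokine receptor were called higher. CCL25 attracts T cells and is known in mammals from thymus and gut. LOC106613704, C-C motif chemokine 25-like (chromosome 10, 17197168 to 17199725), had 44.6, 49.6, 26.3 and 30.0 CPM in ACJ, against 22.0, 16.2, 11.4 and 13.3 CPM in FM. ACJ fish 1 and 2 were well above ACJ fish 3 and 4, and none fell into the FM range (log2 fold change 1.26, SE 0.24, adjusted p = 0.0491). LOC106563704, cytokine receptor common subunit gamma-like (chromosome 11, 80842411 to 80850500), codes for a chain that receptors of interleukin 2 and its relatives share. It had 50.2, 52.0, 56.1 and 49.0 CPM in ACJ, against 42.0, 34.0, 34.0 and 35.2 CPM in FM, with FM fish 1 above the other FM fish but still below ACJ (log2 fold change 0.52, SE 0.08, adjusted p = 0.0239). The receptor LOC106601618, tumor necrosis factor receptor superfamily member 16-like, had 27.95, 20.4, 21.9 and 22.6 CPM in ACJ, against 14.8, 18.9, 12.5 and 13.7 CPM in FM (log2 fold change 0.63, SE 0.15, adjusted p = 0.0657, not called). Both called genes had been matched by their names in the study's own list of genes that differed in these fish, so they are no independent sign of a direction of the group. Of the 48 tested cytokine, chemokine and receptor genes matched by symbol, 0 were called by the quasi-likelihood test and 1, lower in ACJ, by DESeq2 and by the likelihood ratio test, 7 higher and 4 lower ones had an unadjusted p below 0.05, and the median log2 fold change was 0.03. The list shares cxcr5 and tnfrsf13b with the B cell list, and cxcr5 had the lowest log2 fold change in it (-1.17).

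Plexins are the receptors of semaphorins, signals that guide cells and restrain or promote their movement. LOC106609289, plexin-C1-like (chromosome 7, 39265294 to 39289643), had 127, 116, 132 and 118 CPM in ACJ, against 101, 87.7, 94.5 and 77.2 CPM in FM, with no overlap (log2 fold change 0.45, SE 0.09, adjusted p = 0.0383). Plexin-D1-like LOC106566625 had 70.8 ± 2.16 CPM in ACJ and 52.6 ± 7.98 CPM in FM (SD, n = 4; log2 fold change 0.43, SE 0.09, adjusted p = 0.0542), and semaphorin-6D-like LOC106569916 had 82.8 ± 9.74 and 61.9 ± 6.75 CPM (log2 fold change 0.42, SE 0.10, adjusted p = 0.0703). Neither was called. The 15 semaphorin and plexin genes matched by symbol showed no common direction. None was called by the quasi-likelihood test (0, and 0 by DESeq2 and the likelihood ratio test), 3 higher and 2 lower ones had an unadjusted p below 0.05, and the median log2 fold change was -0.11.

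Some genes of macrophages and of uptake and digestion were called higher. Others were called lower, namely fcho2 (log2 fold change -0.76), the FCHSD2-like gene (-1.01) and the autophagy gene atg2b (-0.70). The mannose receptor mrc1 (chromosome 29, 11837790 to 11855027) binds mannose-rich sugars and in fish marks scavenger cells that line vessels. It was the called gene with the highest level, with 1383, 1338, 1278 and 1222 CPM in ACJ, against 966, 777, 1063 and 931 CPM in FM, with no overlap (log2 fold change 0.48, SE 0.10, adjusted p = 0.0428). Legumain, lgmn (chromosome 9, 39570520 to 39585490), is a lysosomal protease that cuts after asparagine and takes part in antigen processing. It had 176, 187, 201 and 179.5 CPM in ACJ, against 152, 113, 132 and 142 CPM in FM (log2 fold change 0.47, SE 0.08, adjusted p = 0.0297). LOC100846955, named digestive cysteine proteinase 1 (chromosome 27, 22878237 to 22885420), had 125, 116, 126 and 97.1 CPM in ACJ, against 85.5, 75.2, 84.6 and 74.0 CPM in FM (log2 fold change 0.54, SE 0.08, adjusted p = 0.0182). ACJ fish were above FM fish throughout in mrc1, lgmn and LOC100846955.

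Further members of these lists came near the threshold without passing it. Granulin, grn, a lysosomal glycoprotein, had 80.3 ± 9.07 CPM in ACJ and 59.5 ± 2.23 CPM in FM (SD, n = 4; log2 fold change 0.43, SE 0.09, adjusted p = 0.0542). The gene grn is counted in both the macrophage and the lysosome list. The two-pore channel tpc1, which releases calcium from lysosomes, had 90.9 ± 10.8 CPM in ACJ and 68.5 ± 3.81 CPM in FM (log2 fold change 0.41, SE 0.09, adjusted p = 0.0595). The scavenger receptor stabilin 2, stab2, had 211, 199, 207 and 226 CPM in ACJ, against 123, 111, 194 and 151 CPM in FM (log2 fold change 0.54, SE 0.14, adjusted p = 0.102). FM fish 3 came close to the ACJ range. By symbol, 1 of 10 macrophage and dendritic cell genes was called, and 5 higher and 2 lower ones had an unadjusted p below 0.05. This list was mixed, with 6 of 10 log2 fold changes positive (median 0.22, range -0.58 to 0.54). Of its 5 further members found by name in the study's gene lists, 0 were higher and 2 lower at an unadjusted p below 0.05. Of 32 lysosome genes 1 was called higher, 10 higher and 2 lower ones had an unadjusted p below 0.05, and 25 had a positive log2 fold change (median 0.13). Clathrin heavy chain 1-like LOC106567969 and sorting nexin-1-like LOC106560773, which act in uptake at the cell membrane and in sorting from endosomes, were also called and were chosen for mention after their values were seen. Clathrin had 430, 461, 458 and 422 CPM in ACJ, against 372, 353, 360 and 346 CPM in FM (log2 fold change 0.31, SE 0.06, adjusted p = 0.0364). The nexin had 183, 183, 184 and 175 CPM in ACJ, against 149, 153, 152 and 150 CPM in FM (log2 fold change 0.26, SE 0.05, adjusted p = 0.0383). These are small differences between groups whose fish lay close together.

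Genes of the vessel lining gave 2 calls, both higher. The transcription factor erg (chromosome 4, 55370244 to 55447539), which maintains the identity of endothelial cells, had 55.0, 57.0, 54.4 and 59.4 CPM in ACJ, against 43.7, 39.1, 41.9 and 45.01 CPM in FM (log2 fold change 0.41, SE 0.07, adjusted p = 0.0336). The adhesion receptor adgrl4 (chromosome 23, 3468850 to 3502877), which is known from developing vessels, had 41.1, 41.9, 39.6 and 40.2 CPM in ACJ, against 30.2, 29.2, 31.0 and 27.3 CPM in FM (log2 fold change 0.47, SE 0.09, adjusted p = 0.0428). Both showed tight groups with a clear gap. The vein and lymphatic factor nr2f2 had 341 ± 25.5 CPM in ACJ and 276 ± 17.3 CPM in FM (log2 fold change 0.31, SE 0.07, adjusted p = 0.0547), and the sphingosine 1-phosphate receptor LOC106613588 had 7.44 ± 0.911 and 3.501 ± 1.74 CPM (log2 fold change 1.10, SE 0.24, adjusted p = 0.0551; SD, n = 4 each). Neither passed the threshold. Of 19 vessel genes matched by symbol, 14 had a positive log2 fold change, with a median of 0.19, and 6 higher and 3 lower ones had an unadjusted p below 0.05. Of the 4 found by name in the study's lists, 2 were higher and 2 lower at that level. Members with lower levels in ACJ, chosen for mention after their values were seen, were the adhesion molecule mcam, at 49.9 ± 7.67 CPM in ACJ and 74.0 ± 11.8 CPM in FM (log2 fold change -0.57, SE 0.18, adjusted p = 0.158), and klf2, a factor that responds to blood flow, at 64.8 ± 3.62 and 82.98 ± 6.57 CPM (log2 fold change -0.36, SE 0.12, adjusted p = 0.175; SD, n = 4 each).

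Collagens, laminins and the enzymes that fold and cross-link them formed the list with the highest share of positive values among those with over 20 members. Among smaller lists by symbol, 7 of 7 pancreas genes and 17 of 19 genes of glycolysis and creatine phosphate were positive. Of 39 tested genes of the extracellular matrix matched by symbol, 35 had a positive log2 fold change and 14 had an unadjusted p below 0.05, all higher in ACJ, with a median of 0.36. However, 0 were called by the quasi-likelihood test, against 3 by DESeq2 and 1 by the likelihood ratio test, all higher in ACJ. In 5 of the 39 genes the ACJ and FM fish did not overlap, beside 2041 (7.06%) of 28929 tested genes. The summed level of the 39 overlapped, at 5838 to 7531 CPM in ACJ and 4018 to 6310 CPM in FM. Collagen alpha-1(XI) chain-like LOC106596897 (chromosome 3, 4193218 to 4367779) had 40.8, 37.9, 47.6 and 41.1 CPM in ACJ, against 17.5, 18.5, 28.5 and 29.3 CPM in FM (log2 fold change 0.84, SE 0.18, adjusted p = 0.0542). Spondin-1-like LOC106562306, a secreted adhesion protein, had 65.0, 71.2, 78.4 and 60.7 CPM in ACJ, against 41.4, 37.3, 51.2 and 60.0 CPM in FM (log2 fold change 0.54, SE 0.12, adjusted p = 0.0547). The groups of both genes were apart, though FM fish 4 nearly reached ACJ fish 4 in spondin. Both genes were found by name in the study's own gene lists, drawn from these same fish, and are not among the 39. With the red cell covariate, itself apart between ACJ and FM, the median of the 39 genes was 0.16. With 1 fish left out the median lay between 0.20 and 0.43.

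**Figure D3:**
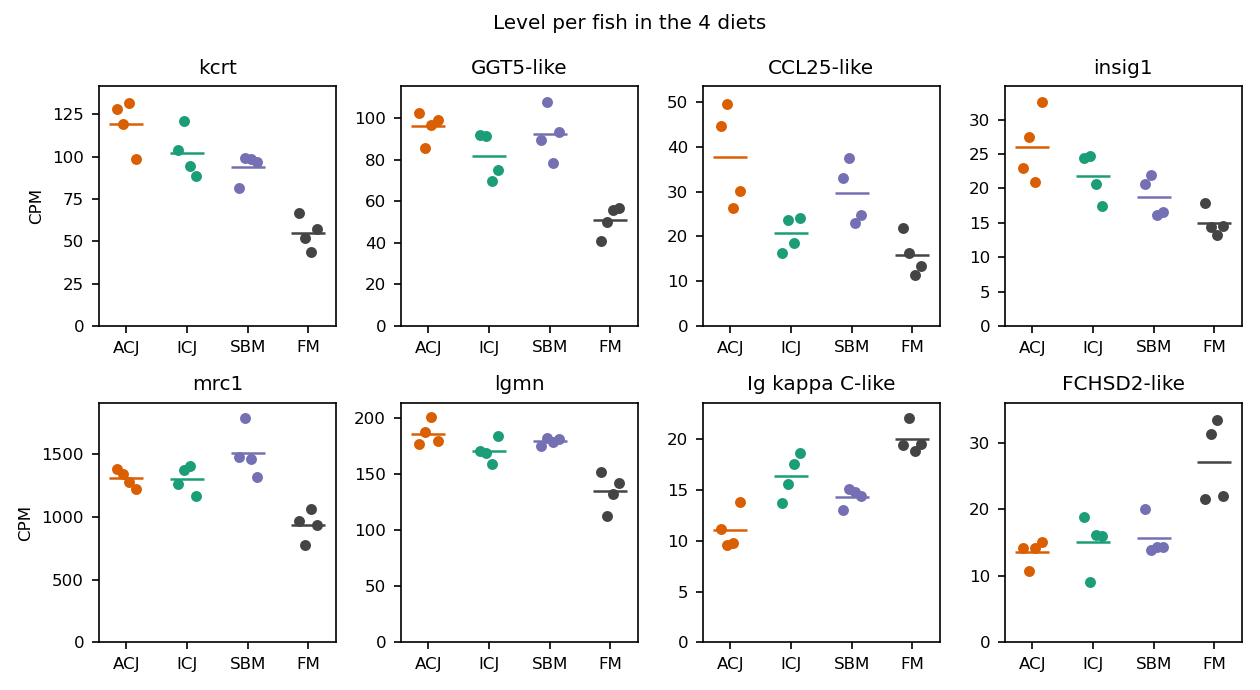
Level in CPM (y axis) of 8 called genes, with 1 point per fish, a line at the mean of each diet, and the diets ACJ, ICJ, SBM and FM from left to right. ACJ fish lie above FM fish in the first 6 panels and below FM fish in the panels of the immunoglobulin kappa C-like and FCHSD2-like genes, and most ICJ and SBM points lie between them or level with ACJ.

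Of the remaining genes with the largest rises, LOC106590361 (chromosome 29, 22809747 to 22823721), with no gene name in the sources used here, had 3.65, 4.51, 5.50 and 2.13 CPM in ACJ, against 1.07, 1.43, 1.94 and 1.33 CPM in FM (log2 fold change 1.47, SE 0.30, adjusted p = 0.0491). It had the highest log2 fold change of the called genes at a low level, with between 10 and 42 counts in ACJ fish, against between 6 and 11 in FM fish. LOC106566468, deoxyribonuclease gamma-like (chromosome 13, 8842308 to 8854287), belongs to a family of enzymes that cut DNA in dying cells. It had 7.46, 10.7, 7.34 and 10.7 CPM in ACJ, against 5.53, 4.30, 4.05 and 4.67 CPM in FM (log2 fold change 0.95, SE 0.17, adjusted p = 0.0349). LOC106600431, a GREB1-like protein (chromosome 3, 33294138 to 33336847), had 11.8, 13.1, 12.7 and 10.7 CPM in ACJ, against 7.14, 8.17, 5.81 and 5.84 CPM in FM (log2 fold change 0.84, SE 0.16, adjusted p = 0.0355). Anoctamin-1 is a chloride channel opened by calcium. Its relative LOC106573096 (chromosome 16, 5671010 to 5741578) was called in 6 of the 8 fits that left out a fish, with 73.2, 66.0, 60.1 and 49.8 CPM in ACJ, against 32.9, 40.7, 38.5 and 38.7 CPM in FM (log2 fold change 0.73, SE 0.11, adjusted p = 0.0155). The uncharacterized LOC106572541 (chromosome 15, 84716716 to 84761936) had 244 ± 17.6 CPM in ACJ and 179 ± 8.22 CPM in FM (SD, n = 4; log2 fold change 0.45, SE 0.07, adjusted p = 0.0182). None of these 5 genes had overlapping groups, which for LOC106590361, LOC106566468 and LOC106600431 was a condition of being named.

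All 12 tested members of the B cell list matched by symbol had a negative log2 fold change, with a median of -0.49, and 9 had an unadjusted p below 0.05. The summed level of the 12 was between 724 and 887 CPM in ACJ and between 970 and 1303 CPM in FM, so the groups did not overlap. Sums of the red cell, macrophage, vessel lining and glycolysis lists by symbol were also apart, and those of the other lists overlapped. Lack of overlap in a sum was thus not particular to B cells. By the quasi-likelihood test 0 of the 12 were called, against 4 by DESeq2 and 1 by the likelihood ratio test, all lower in ACJ. The signalling chain of the B cell receptor cd79b (chromosome 19, 57579964 to 57585383) had 126, 115, 114 and 130 CPM in ACJ, against 156, 199, 180 and 140 CPM in FM (log2 fold change -0.48, SE 0.10, adjusted p = 0.0501). The chemokine receptor cxcr5 (LOC106613395; chromosome 9, 139278997 to 139288211), which in mammals brings B cells into follicles, had 8.90, 6.46, 6.03 and 12.99 CPM in ACJ, against 20.2, 13.8, 25.2 and 16.8 CPM in FM (log2 fold change -1.17, SE 0.24, adjusted p = 0.0503). Both groups were apart in each of these genes by a narrow margin.

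An immunoglobulin light chain was called. LOC106574567, Ig kappa chain C region-like (chromosome 16, 72700646 to 72703752), carries the constant part of an antibody light chain and fell to 11.1, 9.62, 9.83 and 13.8 CPM in ACJ, against 19.5, 22.1, 18.8 and 19.5 CPM in FM (log2 fold change -0.86, SE 0.13, adjusted p = 0.0182). It was called in 4 of the 8 fits that left out a fish. Of the 14 B cell genes found by name in the study's own gene lists, 13 had a negative log2 fold change with a median of -0.68, but these lists were drawn up from the same fish and give no independent evidence of the direction. Light chain genes are near-identical copies and only fragments with a single match were counted, so their levels are uncertain. Red cell sums over 14 genes matched by symbol were also lower in ACJ, between 4622 and 5008 CPM, against between 5051 and 9866 CPM in FM. Sums over 49 red cell genes overlapped between the groups. With the red cell covariate the median of the 12 genes was -0.33, with 12 of 12 negative and 7 at an unadjusted p below 0.05, and with 1 fish left out it lay between -0.54 and -0.38.

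Of 10 T and NK cell genes matched by symbol 0 were called (0 by DESeq2 and by the likelihood ratio test as well), and 2 had an unadjusted p below 0.05, both lower in ACJ. The log2 fold change was negative in 8 of the 10, with a median of -0.18. The difference between the B cell and the T cell list was not tested. The adaptor lime1, which takes part in antigen receptor signalling, had 54.6 ± 4.33 CPM in ACJ and 74.7 ± 10.1 CPM in FM (SD, n = 4; log2 fold change -0.45, SE 0.13, adjusted p = 0.119). The T cell kinase lck had 13.7, 16.8, 15.1 and 15.1 CPM in ACJ, against 20.5, 26.4, 15.1 and 15.3 CPM in FM, and its groups overlapped (log2 fold change -0.35, SE 0.16, adjusted p = 0.302).

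Red cell genes were lower in level with a wide spread among FM fish. Of 14 tested genes matched by symbol, 13 had a negative log2 fold change with a median of -0.78, but 5 had an unadjusted p below 0.05 and 0 were called, by the quasi-likelihood test as by DESeq2 and the likelihood ratio test. TAL1 is a transcription factor needed for red cell precursors. Its homolog LOC106590038 (chromosome 2, 55752059 to 55761790) had 39.2, 33.7, 39.6 and 40.7 CPM in ACJ, against 46.8, 62.0, 69.5 and 67.5 CPM in FM (log2 fold change -0.68, SE 0.14, adjusted p = 0.0527). A further TAL1-like gene, LOC106590324, had 84.7, 77.8, 77.3 and 78.4 CPM in ACJ, against 84.8, 132, 128 and 137 CPM in FM (log2 fold change -0.60, SE 0.16, adjusted p = 0.126). FM fish 1 was level with ACJ in this gene. LOC106590038 and LOC106590324 were found by name in the study's own gene lists, drawn from these same fish, and are not among the 14. Hemoglobin genes took between 3.26 and 3.71% of the counts in ACJ and between 3.20 and 6.59% in FM.

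**Figure D4:**
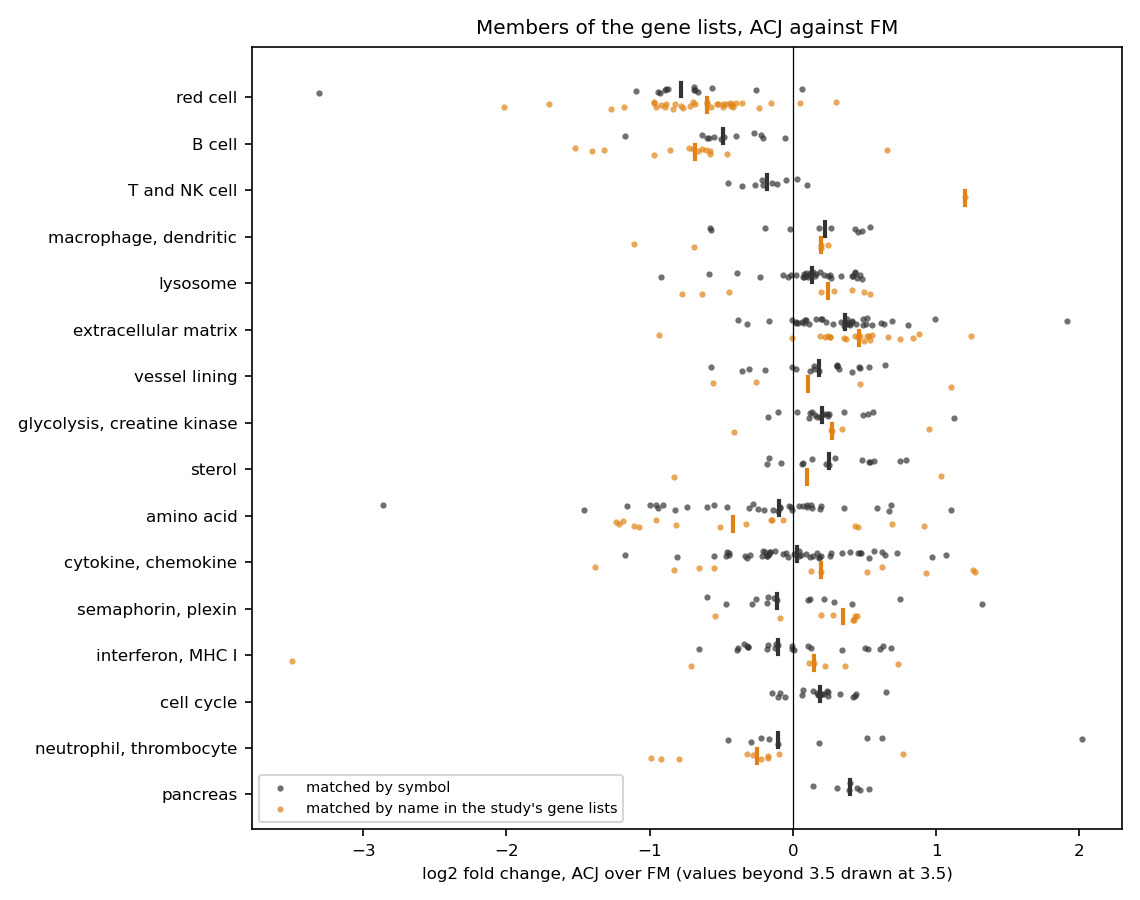
Log2 fold change of ACJ over FM (x axis) of each tested member of 16 gene lists (rows), with a bar at the median, for members matched by symbol (dark) and by name in the study's own gene lists (orange). Medians of the symbol matches were -0.78 for red cell and -0.49 for B cell genes, 0.40 for pancreas and 0.36 for extracellular matrix genes, and between -0.18 and 0.25 for the other 12 lists.

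The genes that fell most included the following. The FCHSD2-like gene LOC106613235 (chromosome 9, 131426071 to 131442683), codes for an F-BAR protein of a family that bends membranes during uptake by clathrin, and had 14.1, 10.7, 14.2 and 15.1 CPM in ACJ, against 21.6, 31.2, 33.4 and 22.0 CPM in FM (log2 fold change -1.01, SE 0.20, adjusted p = 0.0482). The related fcho2 (chromosome 11, 50840734 to 50939820), which starts clathrin pits, had 24.9, 21.04, 18.9 and 20.4 CPM in ACJ, against 30.9, 43.1, 41.0 and 29.7 CPM in FM (log2 fold change -0.76, SE 0.15, adjusted p = 0.0383). In both, FM fish 1 and 4 were nearer to ACJ than FM fish 2 and 3 were. LOC106580294, pleckstrin homology domain-containing family A member 2-like (chromosome 20, 28229198 to 28256124), had 36.1, 31.3, 41.9 and 33.9 CPM in ACJ, against 47.3, 76.4, 77.6 and 60.0 CPM in FM (log2 fold change -0.87, SE 0.16, adjusted p = 0.0355). The sodium/myo-inositol cotransporter-like gene LOC106575499 (chromosome 17, 17182095 to 17191268), whose family takes up the osmolyte inositol, had 5.88, 5.86, 5.50 and 5.32 CPM in ACJ, against 10.2, 7.74, 12.1 and 12.8 CPM in FM (log2 fold change -0.92, SE 0.18, adjusted p = 0.0410). All of these groups were apart, as the choice of the largest falls required.

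Further falls concerned uncharacterized genes. LOC106601354 (chromosome 1, 31602009 to 31615462) had 3.18, 2.71, 5.50 and 2.98 CPM in ACJ, against 6.96, 11.6, 9.15 and 9.84 CPM in FM, the largest fall among the called genes (log2 fold change -1.36, SE 0.26, adjusted p = 0.0355). LOC106607157 (chromosome 6, 33719651 to 33721638) had 10.96, 10.8, 10.7 and 16.6 CPM in ACJ, against 21.6, 28.4, 26.2 and 27.0 CPM in FM (log2 fold change -1.09, SE 0.19, adjusted p = 0.0297). LOC106561185 (chromosome 10, 84690716 to 84711255) had 14.1, 13.4, 15.99 and 15.97 CPM in ACJ, against 26.8, 28.1, 29.0 and 22.0 CPM in FM (log2 fold change -0.83, SE 0.16, adjusted p = 0.0355). Other genes called lower were armc2, an armadillo repeat gene (chromosome 15, 53864416 to 53889914), at 25.7 ± 3.12 CPM in ACJ and 40.7 ± 4.29 CPM in FM (SD, n = 4; log2 fold change -0.67, SE 0.11, adjusted p = 0.0239), and the calcium pump LOC106567410, sarcoplasmic/endoplasmic reticulum calcium ATPase 1-like, at 279 ± 11.3 and 387 ± 49.0 CPM (log2 fold change -0.48, SE 0.09, adjusted p = 0.0364). That pump had been listed as a marker of muscle, and titin-like LOC106570833, the other muscle gene found by name, had 108 ± 11.3 CPM in ACJ and 77.6 ± 8.49 CPM in FM (log2 fold change 0.47, SE 0.14, adjusted p = 0.138, not called). Of 10 muscle and liver genes matched by symbol, 2 passed the filter on low counts and 0 were called (0 by DESeq2 and by the likelihood ratio test, 1 at an unadjusted p below 0.05). The liver gene fgg, fibrinogen gamma (LOC106602564), had 3.34, 2.71, 0.393 and 1.70 CPM in ACJ, against 0.536, 0, 0.352 and 0.167 CPM in FM (log2 fold change 2.92, SE 1.06, adjusted p = 0.214). These values were at or near the detection floor in ACJ fish 3 and in the FM fish, and above it in ACJ fish 1, 2 and 4.

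The remaining lists gave 0 calls among members matched by symbol. Cell cycle genes, 21 in number, had a median log2 fold change of 0.19, with 17 positive and 6 higher at an unadjusted p below 0.05 (0 called by DESeq2 and by the likelihood ratio test). The mitotic gene cdc20 had 25.4 ± 3.08 CPM in ACJ and 18.7 ± 2.23 CPM in FM (SD, n = 4; log2 fold change 0.44, SE 0.12, adjusted p = 0.103), and kif23, a motor of cell division, had 23.2 ± 3.27 and 17.2 ± 3.29 CPM (log2 fold change 0.42, SE 0.13, adjusted p = 0.157). Interferon and MHC I genes, 23 in number, had 0 higher and 1 lower at an unadjusted p below 0.05 and a median of -0.10 (0 called by DESeq2 and by the likelihood ratio test). In this list irf4, a factor of lymphocyte activation and plasma cells, had 29.7 ± 5.32 CPM in ACJ and 38.4 ± 7.18 CPM in FM (log2 fold change -0.38, SE 0.13, adjusted p = 0.180), and the guanylate-binding protein 1-like LOC106582237, found by name, had 31.2 ± 2.19 and 51.3 ± 15.9 CPM (log2 fold change -0.71, SE 0.25, adjusted p = 0.208). Of 9 neutrophil and thrombocyte genes 2 were higher at an unadjusted p below 0.05, and DESeq2 called 1 of them, against 0 by the likelihood ratio test. The megakaryocyte-associated tyrosine kinase-like LOC106613678, found by name in the same list, had 5.72 ± 0.986 CPM in ACJ and 11.2 ± 2.74 CPM in FM (log2 fold change -0.99, SE 0.24, adjusted p = 0.0811). The 7 pancreas genes had 0 at an unadjusted p below 0.05 (0 called by DESeq2 and by the likelihood ratio test), for example cpa6 with 2.64 ± 1.204 CPM in ACJ and 2.16 ± 0.368 CPM in FM, and chymotrypsin ctrb with 13.8, 6.46, 0.786 and 15.5 CPM in ACJ, against 14.3, 1.58, 3.34 and 5.84 CPM in FM.

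ICJ and SBM fish, which shared the soybean meal with ACJ, were placed beside these genes. The ICJ and SBM comparisons with FM use the same 4 FM fish as ACJ against FM, so their values are given side by side only. Of the 41 genes called higher in ACJ, the median log2 fold change over FM was 0.54 in ACJ, 0.39 in ICJ and 0.43 in SBM. Of the 27 called lower it was -0.62 in ACJ, -0.33 in ICJ and -0.47 in SBM. The 68 genes were chosen by their ACJ values. GGT5-like LOC106568231 had 91.9, 91.2, 69.6 and 75.1 CPM in ICJ and 89.4, 108, 78.2 and 93.4 CPM in SBM, and mrc1 had 1262, 1372, 1400 and 1165 CPM in ICJ and 1473, 1785, 1458 and 1315 CPM in SBM, all above each FM fish. Both are examples. On the side of ACJ, 52 of the 68 genes lay apart from FM in SBM, 45 in ICJ and 41 in both. In 12 genes both diets overlapped with FM, insig1 among them, and the CCL25-like gene was apart in SBM only. The 68 genes were called against these same 4 FM fish, and the same counts over all tested genes were not made. The 52, 45 and 41 therefore cannot be set against a background and are a description only.

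**Figure D5:**
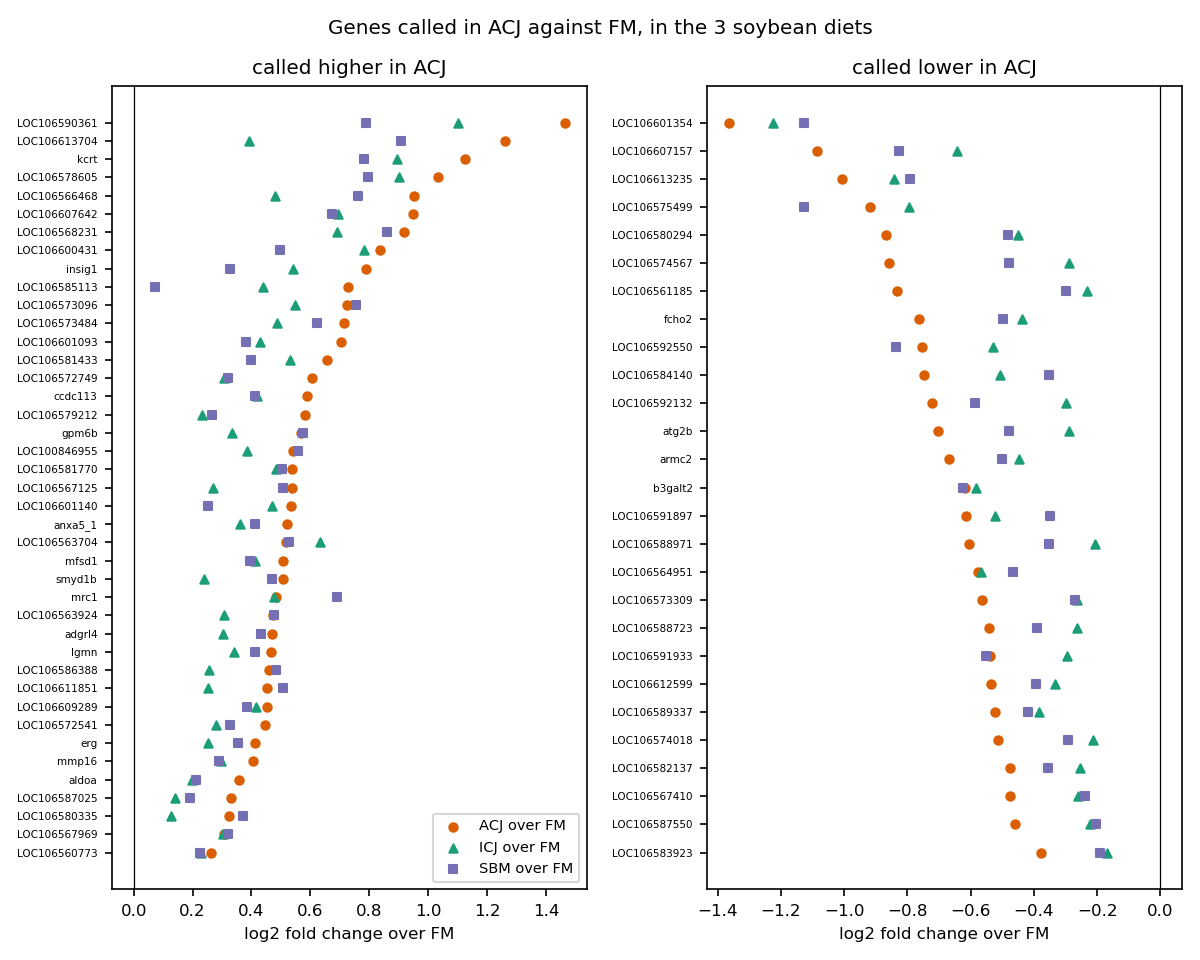
Log2 fold change over FM (x axis) of the 68 genes called in ACJ against FM (rows, in order of the ACJ value), for ACJ, ICJ and SBM; left, the 41 genes higher in ACJ, right, the 27 lower. The ACJ, ICJ and SBM values rest on the same 4 FM fish; medians are 0.54, 0.39 and 0.43 for the higher and -0.62, -0.33 and -0.47 for the lower genes.

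The contrast of ACJ with SBM, which share the soybean meal and of which ACJ has the yeast, gave 0 calls (0% of 28929 genes) by the quasi-likelihood test in the same model, where no adjusted p was under 0.602. Without adjustment 1995 genes (6.9%) had a p below 0.05, while DESeq2 called 5 and the likelihood ratio test 3. ACJ against ICJ, which differ in how the yeast was treated, gave 0 calls (0%) by the quasi-likelihood test and 1639 genes (5.67%) with an unadjusted p below 0.05. The red cell list, whose median log2 fold change was -0.78 in ACJ and -1.17 in SBM over FM, had a median of 0.42 in ACJ over SBM, and the B cell list, at -0.49 in ACJ and -0.31 in SBM over FM, had one of -0.09.

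The following 5 of the 68 called genes were singled out after their values were seen, as those in which the ACJ fish lay beyond the ICJ, SBM and FM fish alike, so that this is a description only. The same count over all tested genes was not made, so the 5 cannot be set against a background. LOC106579212, an uncharacterized gene (chromosome 19, 53552124 to 53585462), had 44.95, 48.4, 41.4 and 42.4 CPM in ACJ, and between 26.9 and 39.4 CPM in the other 12 fish. The 4 others were lower in ACJ. LOC106587550, switch-associated protein 70-like (chromosome 26, 28240274 to 28261645), whose mammalian relative SWAP70 is known from activated B cells, had 74.3, 73.8, 71.0 and 74.3 CPM in ACJ, between 77.6 and 93.2 CPM in ICJ and SBM and between 91.6 and 120 CPM in FM (log2 fold change over FM -0.46, SE 0.08, adjusted p = 0.0355). LOC106573309, inositol 1,4,5-trisphosphate receptor type 2-like (chromosome 16, 16608774 to 16776352), a channel that releases calcium from the endoplasmic reticulum, had 46.7, 48.1, 46.5 and 54.7 CPM in ACJ, between 56.3 and 64.5 CPM in ICJ and SBM and between 60.3 and 83.8 CPM in FM (log2 fold change over FM -0.56, SE 0.09, adjusted p = 0.0239). The others were single-stranded DNA-binding protein 3-like LOC106574018 and zinc finger protein DPF3-like LOC106588971, with log2 fold changes over FM of -0.51 (SE 0.09) and -0.61 (SE 0.12). None of the 5 was called in ACJ against SBM (adjusted p of 0.602 or more by the quasi-likelihood test). The called gene with the smallest unadjusted p in ACJ against SBM was zinc finger protein 703-like LOC106585113 (chromosome 24, 10517460 to 10521398), related to a repressor of transcription. It had 38.9, 46.1, 38.5 and 32.1 CPM in ACJ, 27.5, 30.3, 35.6 and 34.0 CPM in ICJ, 27.3, 28.04, 20.6 and 23.2 CPM in SBM and 23.6, 21.9, 21.8 and 26.8 CPM in FM. ACJ fish exceeded SBM fish and FM fish throughout and overlapped with ICJ fish (log2 fold change over FM 0.73, SE 0.12, adjusted p = 0.0297; over SBM 0.66, SE 0.12, adjusted p = 0.602).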

How the data were processed

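Spleen RNA of 16 Atlantic salmon (4 per diet; RIN of at least 8 per the labels) was sequenced from stranded mRNA libraries. The authors trimmed reads with BBDuk (34.56), aligned them to ICSASG_v2 with HISAT2 (2.1.0) and deposited counts per gene from featureCounts, as whole numbers without normalization; the submitters' notes give version 1.4.6-p1 and the file headers 1.5.1. Per the file headers, read pairs were counted on the reverse strand, and fragments with several matches or genes were not counted, so near-identical copies are covered only in their unique parts. A row with no gene name (0.205 to 0.475% of counts) was left out. Libraries with the same diet label come from separate fish; no pair had counts that agreed within sampling noise (chi-square per degree of freedom of 4.80 or more).

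From these counts, genes were filtered with filterByExpr by diet, scaled by TMM and fitted in 1 model of 16 fish with a mean per diet (edgeR 4.0.16, R 4.3.3, glmQLFit with robust estimation, quasi-likelihood test, Benjamini-Hochberg over 28929 genes, threshold 0.05). The biological coefficient of variation was 0.199. CPM values use TMM-scaled library sizes, and fold changes are ACJ over the other diet on the log2 scale. The scripts were tested on simulated data.

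Named genes were the 8 highest and 8 lowest called log2 fold changes (mean log2 CPM of at least 1, no overlap), the 8 called genes kept in most of the 8 leave-one-out fits, and in each of 17 gene lists the called members and 2 further members with the smallest p. List members were matched by symbol, or by name in the study's gene lists (1053 of 1054 IDs matched), which were drawn from these same fish. Members, lists and the rule were chosen with earlier results of these data known. Chromosome numbers were assigned through RefSeq's gene table for Ssal_v3.1, of which no coordinates were used. Alternatives were DESeq2 (1.42.0), RLE scaling, omission of the filter, edgeR's likelihood ratio test (genes with 1 CPM in 4 or more fish), a replicate block, removal of 16 hemoglobin genes, only the 8 fish compared, and each fish left out. Covariates for pancreas and red cell RNA were added after seeing the data. Same-numbered fish are different animals, and the numbers did not pair them.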

Additional observations from a re-analysis of the deposited data

Results flagged for a closer look

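Of 122 groups checked (61 named genes in ACJ and in FM, 4 fish each), 9 had 1 fish far from the other 3 by Dixon's criterion, where chance gives about 5%. Among the ACJ fish, LOC106578605, the insig1-like gene, had 11.9 CPM in fish 2 with the nearest at 7.94 CPM, LOC106601354 had 5.50 CPM in fish 3 with the nearest at 3.18 CPM, and LOC106607157 had 16.6 CPM in fish 4 with the nearest at 10.96 CPM. In ACJ fish 1, the TAL1-like LOC106590324 had 84.7 CPM (nearest 78.4 CPM), the guanylate-binding protein 1-like LOC106582237 had 27.9 CPM (nearest 32.0 CPM) and cdc20 had 20.8 CPM (nearest 26.2 CPM). In FM fish 1, the cytokine receptor gamma-like LOC106563704 had 42.0 CPM (nearest 35.2 CPM) and ltc4s had 35.0 CPM (nearest 27.5 CPM), and in FM fish 2 kif23 had 22.1 CPM (nearest 16.2 CPM).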

How the results depend on the processing

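The count of genes called in ACJ against FM was 68 (60.3% higher in ACJ). It was 71 with RLE scaling and 69 without hemoglobin genes. It moved to 460 with DESeq2 (235 higher and 225 lower, 67 shared with the 68), 190 with the likelihood ratio test, 127 with no filter (49.6% higher), 164 with the pancreas covariate, 3 with the red cell covariate and 4 with only the 8 fish compared, and lay between 2 and 550 with a fish left out; the cause was not tested. The replicate block (fish number as a term) gave 39, of which 33 were among the 68; same-numbered ACJ and FM fish had correlations of deviations of 0.088, -0.135, 0.157 and 0.048, and the numbers were not taken to pair the fish. For ACJ against SBM the count was 0, and 5 with DESeq2, 3 with the likelihood ratio test, 6 with the pancreas covariate, 8 with only the 8 fish compared and 0 in each other fit, the replicate block and each fish left out included. Of 1033 values of named genes under the alternatives, 739 kept direction and side of the threshold, 78 gained and 215 lost a call, and 1 turned its sign: ctrb, at a log2 fold change of -0.65 (adjusted p = 0.890) with the red cell covariate. At these depths differences of genes near the floor of 3 counts could not be resolved.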
